A study of Mus musculus with 36 samples.

Results

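Mouse nephron progenitor cells (NPCs) given guide RNAs against all 4 Tcf/Lef genes (Tcf7l1, Tcf7l2, Tcf7 and Lef1; quadruple knockout, hereafter QKO) were compared with NPCs given a guide RNA against GFP (hereafter control), both cultured in high CHIR. The members were taken by their labels: 3 QKO and 3 control libraries in 5 µM CHIR, 6 of the 36 RNA-seq libraries in the series. CHIR99021 (CHIR) inhibits the kinase GSK3β, which otherwise marks β-catenin for destruction, and so serves as an agonist of canonical Wnt signaling; 5 µM is called high CHIR and 1.25 µM low CHIR. The cells were primary NPCs from kidneys of E16.5 mouse embryos, pooled over animals, of Swiss Webster or C57Bl/6 stock (which of these is not given per library), with the genotype Cas9-eGFP in QKO and control alike, and were grown in nephron progenitor expansion medium. After transfection together with mRNA for the red fluorescent protein mCherry, and a knockout period in low CHIR, the medium was changed, and mCherry+ cells were sorted. QKO cells received 4 guides, each at a lower dose, and control cells 1 guide, which targeted GFP, so the loss of the 4 factors and the number of cut sites cannot be told apart in this comparison. The same table holds 3 control and 2 QKO libraries in low CHIR. QKO low CHIR replicate 2 was not analysed here. The labels do not say whether replicates are separate isolations, so that p-values measure the spread between these libraries.

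NPCs are the mesenchymal cells from which nephrons form. In the self-renewing state they express transcription factors such as Six2, Eya1 and Osr1. Wnt9b from the ureteric bud acts on them through β-catenin, and a strong signal starts their conversion into the epithelial renal vesicle, with expression of Wnt4, Jag1, Lhx1 and Fgf8. β-Catenin does not bind DNA. The Tcf/Lef proteins do, through a high mobility group domain, and they recruit β-catenin when it is present and Tle corepressors when it is not. Tcf7l1 is known mainly as a repressor, whereas Lef1 and Tcf7 act mostly as activators and are themselves frequent Wnt targets.

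The guides decide which exons were cut, and their targets are shown here with the 3 bases of the PAM, which Cas9 requires beside the target, in capitals. All 4 targets read along the plus strand of GRCm38, and all lie in exon 3 of their gene.
Tcf7l1: cttaaaaaaagcgccatcctGGG
Tcf7l2: ttagcggccaagaggcaagaTGG
Tcf7: agctgggggacgccatgtggAGG
Lef1: ctcccaggaaagcatccagaCGG
The Tcf7l1 target (chr6:72788307-72788326) lies in exon 3 of 13, with 17.8% of the coding sequence before it, and is coding in 3 of 3 protein-coding transcripts of the GENCODE vM21 annotation. The Tcf7l2 target (chr19:55743069-55743088) lies across the edge of exon 3 of 14, with 16 bases in coding sequence and 4 in the intron, and 14.1% of the coding sequence is before it. It is coding in 9 of 12 protein-coding transcripts. The Tcf7 target (chr11:52261584-52261603) lies in exon 3 of 10 after 12.9% of the coding sequence, in 2 of 2 transcripts. The Lef1 target (chr3:131115406-131115425) crosses the start of exon 3 of 12, with 13 coding bases and 7 intronic, after 23.0% of the coding sequence and in 4 of 4 transcripts. All 4 sites thus stand early in the coding sequence.

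The values are normalized counts, that is, read numbers per gene after division by the size factor of each library. QKO libraries in high CHIR held 16416495 to 19117054 reads on genes and the controls 16092034 to 20152719. Differences were fitted with limma on log2(normalized count + 1) across all 11 libraries of the table for the 15878 genes whose mean reached 10 normalized counts. A gene is called raised or lowered in QKO when its adjusted p is under 0.05 and its log2 fold change is at least 0.5. Libraries with the same replicate number deviated together, with r = 0.369, 0.249 and 0.365 between QKO and control in high CHIR, and so the counts of calls in this comparison are also given with the replicate number as a block. On the first principal component, which held 45.6% of the variance, control libraries in low CHIR lay at -66.54 to -32.85 and those in high CHIR at 47.05 to 71.12. QKO libraries in high CHIR lay between these ranges, at 4.92, 28.59 and 32.64, and QKO libraries in low CHIR at -58.14 and -39.87.

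Transcripts of the targeted genes were read first. Transcripts of Lef1 and Tcf7 were lower in every QKO library in high CHIR than in any control, while those of Tcf7l1 and Tcf7l2 overlapped. Lef1 was at 1504.1, 2742.6 and 1144.0 normalized counts in control replicates 1, 2 and 3, and at 254.7, 441.4 and 512.9 in QKO replicates 1, 2 and 3. Its log2 difference of -2.12 ± 0.65 (standard error) had an adjusted p of 0.131 without the block and 0.0476 with it. Tcf7 was at 534.0, 535.0 and 267.9 in controls and at 109.5, 179.7 and 127.3 in QKO (log2 difference -1.64 ± 0.31, adjusted p = 0.0175; block 0.00385), a call that was lost in 4 of the 6 fits that left out a library. The 2 activator genes therefore stood apart between the groups, Tcf7 with the call and Lef1 with the call only under the block. Tcf7l2 was at 1263.4, 2233.0 and 1750.0 in controls and at 998.7, 1616.2 and 1481.0 in QKO (-0.35 ± 0.22, adjusted p = 0.513; block 0.134). Tcf7l1 was at 612.3, 486.4 and 591.1 in controls and at 602.3, 539.1 and 735.7 in QKO (0.15 ± 0.19, adjusted p = 0.778; block 0.662). In low CHIR, the 3 control libraries held 2224.7, 1774.5 and 1735.9 normalized counts of Tcf7l1 and the 2 QKO libraries 827.2 and 1286.2, without overlap and without a call (-0.88, adjusted p = 0.82). Counts over a whole gene include transcripts of edited alleles, so they do not measure how many alleles were cut. In wild-type NPCs, Lef1 and Tcf7 rose from low to high CHIR by 3.9 and 2.58 (log2). With β-catenin removed in high CHIR, by guide RNA against Ctnnb1 or by Cre, Lef1 differed by -2.62 and -3.34. Tcf7 differed by -1.39 and -1.55 there. Their lower transcripts in high CHIR cannot check the targeting. In low CHIR, Lef1 had means of 55.1 in controls and 54.3 in QKO, and Tcf7 194 and 82. The paper checked each guide by staining for the targeted protein.

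**Figure D1:**
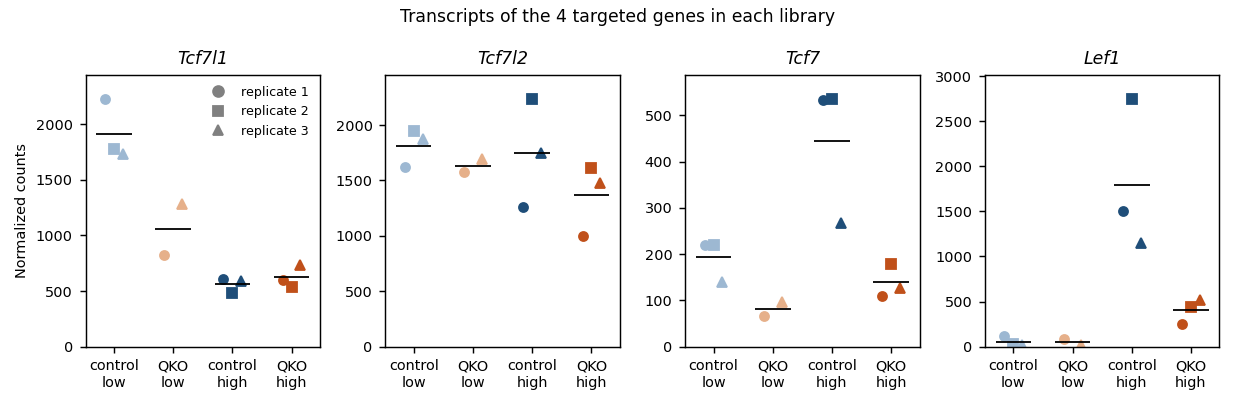
Normalized counts of the 4 targeted genes in each library of the table (y axis, linear from 0), by guide and CHIR level, with the mark's shape giving the replicate number and a bar at the group mean. In high CHIR, Lef1 lay between 254.7 and 512.9 in QKO and between 1144.0 and 2742.6 in controls, whereas Tcf7l1 overlapped between the groups.

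In high CHIR, 326 genes were raised and 78 lowered in QKO, which are 2.05% and 0.491% of the genes tested. The median size of the difference was 1.59 on the log2 scale for raised genes, of which 269 differed by at least 1 and 116 by at least 2. It was 1.33 for lowered genes, of which 52 differed by at least 1 and 10 by at least 2. In all 404 called genes the 3 QKO libraries lay wholly on one side of the 3 controls. Over all genes tested, 11.1% had every QKO library above every control and 8.8% every QKO library below. With the replicate block, 841 genes (5.3%) were raised and 340 (2.14%) lowered, and these included all 326 and all 78.

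The size of both sets depended on single libraries. Without control replicate 1 there were 280 raised and 38 lowered genes, without control replicate 2 there were 156 and 25, and without control replicate 3 there were 346 and 130. Leaving out QKO replicate 1, 2 or 3 gave 164, 126 and 169 raised genes and 22, 26 and 47 lowered genes.

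The genes raised most were a mixed group of enzymes, receptors and secreted proteins. The rule took the 12 largest whose mean reached 50 normalized counts and whose groups did not overlap. Dkk2, a secreted modulator of Wnt signaling, was at 11.5, 9.1 and 9.6 normalized counts in controls and at 312.9, 227.5 and 194.8 in QKO (log2 difference 4.45 ± 0.70, adjusted p = 0.00571). Fgf1, a fibroblast growth factor, was at 21.4, 61.7 and 17.0 in controls and at 348.5, 435.2 and 432.0 in QKO (3.78 ± 0.36, adjusted p = 0.000476). In high CHIR, QKO libraries thus held both ligands at 194.8 normalized counts or more, where control libraries had at most 61.7. The 2 differed in low CHIR controls. Fgf1 was at 2347.0, 3491.7 and 2705.0 there, above QKO in high CHIR, and Dkk2 at 56.3, 14.8 and 18.2, below it. Gfra2, a coreceptor for ligands of the Gdnf family, was at 52.7, 22.2 and 15.9 in controls and at 690.1, 464.3 and 376.0 in QKO (4.16 ± 0.54, adjusted p = 0.00224). Ntsr1, the neurotensin receptor, was at 8.2, 8.1 and 38.3 in controls and at 146.0, 536.0 and 733.7 in QKO (4.70 ± 0.70, adjusted p = 0.00392). In both the lowest QKO library was several times the highest control.

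Pamr1, a secreted protein with a protease-like domain, had the largest difference among genes without a near-identical copy, from 4.9, 1.0 and 0.0 in controls to 172.1, 65.4 and 80.0 in QKO (log2 difference 5.42 ± 0.62, adjusted p = 0.00119). Spag11b, a secreted peptide of the epididymis, was above it at 5.77, but it has the near-identical copy Spag11a, so that its reads are uncertain. Others were Gm35455 (log2 difference 5.10), Hcar1, the lactate receptor (4.13), Ttc22 (4.08), Adh1, an alcohol dehydrogenase (3.81), and Cyp1a1, a monooxygenase known as a target of the aryl hydrocarbon receptor (3.76). Of the 12, Gm35455 lost its call when control replicate 2, QKO replicate 2 or QKO replicate 3 was left out, and Cyp1a1 when control replicate 2 or any QKO library was left out.

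The genes lowered most included regulators of transcription, apoptosis and retinoic acid synthesis. Aldh1a3, which makes retinoic acid, was at 5490.4, 6358.1 and 3147.1 normalized counts in controls and at 778.8, 1600.6 and 858.1 in QKO (log2 difference -2.23 ± 0.30, adjusted p = 0.00256). Bmf, a proapoptotic member of the Bcl2 family, was at 562.1, 336.8 and 482.7 in controls and at 59.1, 71.7 and 120.5 in QKO (-2.48 ± 0.32, adjusted p = 0.00224). Lrp4, an Lrp family receptor known to bind Wnt modulators, was at 10722.0, 18243.9 and 12593.6 in controls and at 1835.7, 4971.2 and 4772.7 in QKO (-1.94 ± 0.36, adjusted p = 0.014). QKO libraries overlapped the low CHIR controls for Bmf and lay above them for the other 2, since low CHIR controls were at 94.2, 82.9 and 72.6 for Aldh1a3, at 91.7, 53.3 and 96.0 for Bmf, and at 338.8, 434.2 and 593.9 for Lrp4. Gata2, a zinc-finger transcription factor, was at 430.2, 278.1 and 162.7 in controls and at 67.8, 66.5 and 55.9 in QKO (-2.07 ± 0.34, adjusted p = 0.00781). Kit, a receptor tyrosine kinase, was at 1774.4, 2279.5 and 1622.4 in controls and at 340.7, 527.7 and 426.2 in QKO (-2.14 ± 0.37, adjusted p = 0.0101). Arhgef3, an exchange factor for small GTPases, was at 1303.8, 1446.2 and 1065.3 in controls and at 207.7, 449.8 and 372.2 in QKO (-1.95 ± 0.32, adjusted p = 0.00764). For each of these genes the highest QKO library was below the lowest control, as the rule for naming them required.

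The remaining genes lowered most were Psd2 (log2 difference -2.53), Vegfc, a ligand of the lymphatic endothelium (-2.27), Krt23, a keratin (-2.23), Tent5c, a poly(A) polymerase (-2.07), Adgrg2, an adhesion G-protein-coupled receptor (-2.00), and Dusp2, a MAP kinase phosphatase (-1.95). Psd2, Vegfc, Krt23 and Dusp2 each lost the call in 5 of the 6 fits that left out a library, Tent5c in 4, Kit and Adgrg2 in 2, and Lrp4 without control replicate 2. Aldh1a3, Bmf, Gata2 and Arhgef3 were called in all 6.

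**Figure D2:**
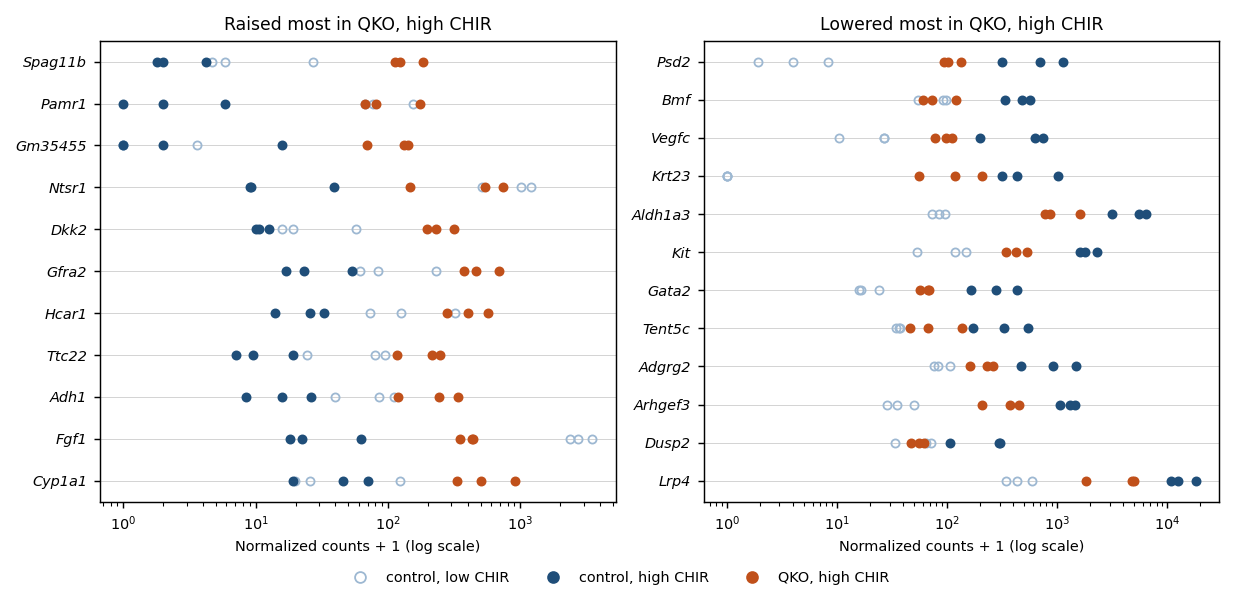
Normalized counts + 1 on a log axis for the genes described as raised most (left) and lowered most (right) in QKO, each point a library, with open points for controls in low CHIR and filled points for controls and QKO in high CHIR. In every row the 3 QKO points and the 3 control points in high CHIR do not overlap, as the rule for naming these genes required.

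Among 16 regulators and markers of NPCs, 7 were raised in QKO and none lowered, against 2.05% and 0.491% of all genes. With the block 9 were raised and 2 lowered. The list was written with earlier results of these data known. The paper ranks Cited1, Tmem100, Meox2 and Osr1 among the genes raised most significantly by β-catenin removal in this series. The counts therefore describe the list and are no independent test. The median log2 difference of the list was 1.12, beside 0.00 over all genes. Six2, a transcription factor required for NPC self-renewal, was at 245.6, 136.5 and 271.1 normalized counts in controls and at 664.9, 606.6 and 684.6 in QKO (1.64 ± 0.33, adjusted p = 0.0226). Cited1, which marks the least committed NPCs, was at 167.3, 164.8 and 214.8 in controls and at 465.0, 552.6 and 859.1 in QKO (1.73 ± 0.26, adjusted p = 0.0039). Osr1, a zinc-finger factor of early kidney mesenchyme, was at 103.8, 52.6 and 77.6 in controls and at 401.6, 257.6 and 392.4 in QKO (2.18 ± 0.30, adjusted p = 0.00289). For each of these 3 the lowest QKO library was above the highest control by more than the range of the controls.

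Low CHIR controls held far more of the same genes. Six2 was at 3148.0, 2501.9 and 1206.0 there, Cited1 at 5775.0, 6182.1 and 4179.0, and Osr1 at 1221.8, 1016.5 and 1635.6, so the QKO libraries in high CHIR lay between the control levels of high and low CHIR for all 3 genes. Summed over the list, controls in high CHIR held 15015 to 16695 normalized counts, QKO in high CHIR 17359 to 19413, and controls in low CHIR 30868 to 36773. The homeobox gene Meox2 was at 79.9, 70.8 and 191.4 in controls and at 605.8, 541.2 and 692.3 in QKO (2.56 ± 0.30, adjusted p = 0.00126). Tmem100, a transmembrane protein of self-renewing NPCs, was at 102.2, 74.8 and 104.2 in controls and at 1553.2, 571.3 and 515.8 in QKO (3.04 ± 0.33, adjusted p = 0.000863). In both, every QKO library was at 515.8 normalized counts or more and every control at 191.4 or less. Crym, a thyroid hormone-binding protein, was raised by 2.96 ± 0.56 (adjusted p = 0.0164) and Meox1 by 1.74 ± 0.39 (adjusted p = 0.0381), although Meox1 did not exceed 19.3 normalized counts in high CHIR. Wt1, a zinc-finger factor of kidney mesenchyme, was above its controls in every QKO library (1.34 ± 0.33, adjusted p = 0.061; block 0.00297). Eya1, a coactivator that partners Six2, overlapped, at 585.5 to 1645.8 in controls and 1631.8 to 2174.2 in QKO (0.90 ± 0.29, adjusted p = 0.16; block 0.0283).

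Other members lay on the low side. Sall1, a zinc-finger factor, was at 8486.2, 8885.3 and 7155.3 in controls and at 4724.0, 6627.9 and 5917.1 in QKO (-0.51 ± 0.16, adjusted p = 0.128; block 0.0339). Hoxd11, a patterning gene of the metanephric mesenchyme, had a difference of -0.62 ± 0.27 (adjusted p = 0.308; block 0.0318), and Gdnf, the ligand that drives ureteric branching, one of -0.68 ± 0.29 (adjusted p = 0.317; block 0.19). The list thus had members on both sides. Of the calls, those of Cited1, Osr1, Meox2 and Tmem100 held in all 6 fits that left out a library, whereas Six2 and Crym lost theirs in 4 of them and Meox1 in all 6.

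Among 25 tested genes of nephron induction, 4 were lowered and 1 was raised. With the block 11 were lowered and 3 raised. These counts, and those of every list that follows, stand beside 0.491% lowered and 2.05% raised over all genes, or 2.14% and 5.3% with the block. The induction list was written with earlier results of these data known. The paper reports several members, Vegfc, Bmpr1b and Id2 among them, as dependent on β-catenin in this series, and Id2 also as perturbed in QKO. Its counts therefore describe the list and are no independent test. The median log2 difference of the induction list was -0.91. The called members were Vegfc (-2.27 ± 0.54, adjusted p = 0.0491), the Bmp receptor gene Bmpr1b (-1.19 ± 0.27, adjusted p = 0.0425), the cadherin gene Cdh4 (-0.91 ± 0.21, adjusted p = 0.0482) and Id2, an inhibitor of basic helix-loop-helix factors (-0.69 ± 0.12, adjusted p = 0.0133). Bmpr1b was at 790.3, 873.8 and 904.8 normalized counts in controls and at 268.6, 411.3 and 475.3 in QKO, and lost its call in each fit that left out a library. Vegfc and Cdh4 lost theirs in 5 of 6, and Id2 in 2. Id2 did not rise with CHIR in wild-type NPCs, where its high minus low CHIR difference was -0.88 (adjusted p = 0.0123 in limma). In the controls here it had means of 22229 in low and 23944 in high CHIR.

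Wnt4, the Wnt ligand needed for the renal vesicle to form, was at 5905.8, 2331.0 and 2663.3 in controls and at 1570.6, 1253.7 and 1553.3 in QKO (-1.19 ± 0.32, adjusted p = 0.0792; block 0.0154). Jag1, a Notch ligand, was at 7179.9, 18709.1 and 12083.2 in controls and at 3138.6, 6951.9 and 5913.3 in QKO (-1.22 ± 0.40, adjusted p = 0.164; block 0.00691). Both were below every control in every QKO library, and both were called lowered only with the block. In low CHIR controls Wnt4 was at 22.7 to 31.1 and Jag1 at 124.7 to 286.1, so QKO libraries in high CHIR still held many times the low CHIR level. Emx2, a homeobox gene of nephron epithelium, was at 984.8, 2489.8 and 850.6 in controls and at 80.8, 444.6 and 359.6 in QKO (-2.44 ± 0.61, adjusted p = 0.06; block 0.0123). Lhx1, a LIM homeobox gene of the renal vesicle, was at 2761.7, 7240.9 and 3135.4 in controls and at 844.0, 2809.7 and 2187.7 in QKO, with overlap (-1.20 ± 0.56, adjusted p = 0.361; block 0.0175). Sox11, Bach2 and Pou3f3 were also called lowered only with the block, at -0.99, -1.27 and -1.68. Fgf8 was low throughout, at 9.9, 56.6 and 40.4 in controls and 1.7, 8.3 and 21.2 in QKO (-1.84 ± 0.83, adjusted p = 0.341; block 0.0982). Summed over the list, controls in high CHIR held 140094 to 154600 normalized counts, QKO in high CHIR 80076 to 103793 and controls in low CHIR 45735 to 53960.

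A few members of the induction list were higher in QKO. Ccnd1, a D-type cyclin and a well-known Wnt target in other tissues, was at 1224.7, 2219.8 and 2126.4 in controls and at 4051.2, 5856.1 and 5934.5 in QKO (1.53 ± 0.32, adjusted p = 0.0285). Its call was lost in 4 of the 6 fits that left out a library. Dll1, a Notch ligand, was at 48.6, 205.3 and 190.3 in controls and at 218.2, 826.8 and 828.2 in QKO (2.09 ± 0.65, adjusted p = 0.136; block 0.00061). Tgfa, a ligand of the Egf receptor, differed by 0.60 ± 0.39 (adjusted p = 0.536; block 0.0156), and Pax8, an early nephron factor, by 0.30 ± 0.35 (adjusted p = 0.753; block 0.0982).

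**Figure D3:**
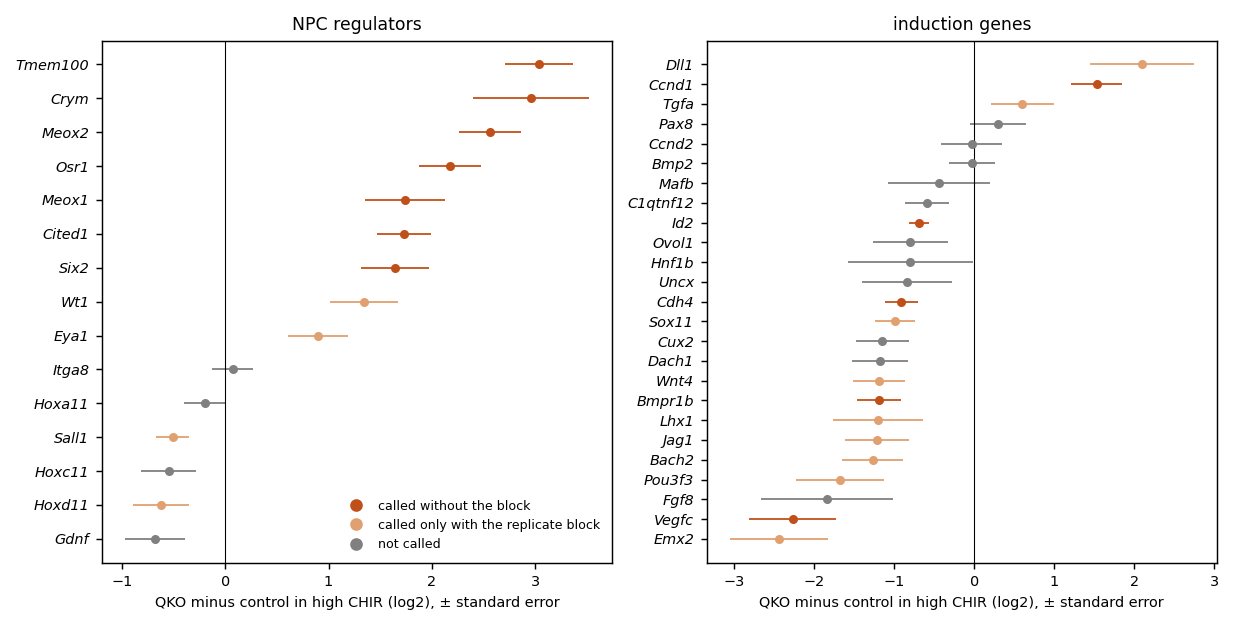
Log2 difference of QKO minus control in high CHIR with its standard error (x axis) for the NPC regulators reported here (left) and the 25 tested induction genes (right), colored by whether the gene was called without the block, only with it, or not at all. NPC regulators reached from -0.68 for Gdnf to 3.04 for Tmem100, and induction genes from -2.44 for Emx2 to 2.09 for Dll1.

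Genes that many cell types switch on under canonical Wnt signaling and that feed back on the pathway lay lower in QKO as a list, with no call. Of 13 tested, none was raised or lowered without the block and 3 were lowered with it, at a median of -0.85. Sp5, a zinc-finger target gene, was at 94.8, 245.7 and 86.1 in controls and at 5.2, 28.0 and 41.5 in QKO (-2.69 ± 0.78, adjusted p = 0.108; block 0.00977). Nkd1, an inhibitor of Dishevelled, differed by -1.36 ± 0.39 (adjusted p = 0.109; block 0.0458), and Apcdd1, a membrane inhibitor of Wnt reception, by -1.72 ± 0.59 (adjusted p = 0.189; block 0.0219). Axin2, a scaffold of the destruction complex and the most used readout of the pathway, was at 480.5, 345.9 and 196.7 in controls and at 155.6, 192.2 and 190.9 in QKO. Its groups stood just apart, without a call in either fit (-0.84 ± 0.32, adjusted p = 0.24; block 0.139). Znrf3, a ubiquitin ligase that removes Frizzled receptors, differed by -0.17 ± 0.12 (adjusted p = 0.573; block 0.391).

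Among 17 tested Wnt ligands and receptors, 2 were raised and 1 was lowered (block: 2 and 2), at a median of -0.41. Fzd4, a Frizzled receptor, was at 269.5, 415.6 and 297.7 in controls and at 903.1, 988.8 and 1003.7 in QKO (1.58 ± 0.18, adjusted p = 0.00107), and was called in all fits that left out a library. Fzd6, another Frizzled, went the other way, from 492.0, 468.2 and 216.9 in controls to 113.0, 142.3 and 128.2 in QKO (-1.53 ± 0.32, adjusted p = 0.0293). Rspo1, a secreted enhancer of Wnt signaling, was at 26.4, 19.2 and 27.6 in controls and at 80.0, 72.7 and 126.3 in QKO (1.86 ± 0.39, adjusted p = 0.0293). The calls of Fzd6 and Rspo1 were each lost in 5 of 6 fits that left out a library. Of 7 tested secreted Wnt inhibitors, 2 were raised and none lowered (block: 3 and 0), with a median of 0.44. These were Dkk2, given above, and Dkk3, which was at 117.0, 72.8 and 95.7 in controls and at 494.6, 408.2 and 302.8 in QKO (2.06 ± 0.38, adjusted p = 0.0147) and lost its call in 3 of the 6 fits without a library. Dkk1, which blocks the Lrp5 and Lrp6 coreceptors, spread over 71.3 to 1177.7 in QKO and 188.2 to 428.8 in controls (0.02 ± 1.28, adjusted p = 0.997; block 0.991). Of 17 genes for the destruction complex and nuclear partners of β-catenin, only the corepressor gene Tle4 was called (block: the same count of 1), from 684.9, 793.9 and 556.1 in controls to 297.3, 389.5 and 374.1 in QKO (-0.93 ± 0.21, adjusted p = 0.0388), a call that was lost in 5 of these fits.

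Notch signaling, which patterns the early nephron, had 2 raised genes and no lowered gene of 13 tested, beside 2.05% raised over all genes, at a median of 0.80. With the block 5 were raised, beside 5.3%, and 1 was lowered. Hey1, a transcriptional repressor and direct Notch target in other tissues, was at 1064.8, 531.9 and 721.9 in controls and at 2150.4, 1738.8 and 1842.5 in QKO (1.36 ± 0.22, adjusted p = 0.00781), a call that held in all fits without 1 library. Hes1, of the same family, was at 193.7, 256.9 and 229.7 in controls and at 498.0, 574.4 and 463.8 in QKO (1.18 ± 0.23, adjusted p = 0.0198) and lost its call in 5 of them. Dll1, Hey2 and Notch1 were raised only with the block, and Jag1 was the member lowered there, so the ligand genes Jag1 and Dll1 stood on opposite sides.

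In the Fgf pathway, 2 of 17 genes were raised and none lowered, at a median of -0.05 (block: 2 and 0). These were Fgf1 and the Ets factor gene Etv1, which was at 195.3, 165.9 and 365.7 in controls and at 995.2, 823.7 and 760.7 in QKO (1.90 ± 0.25, adjusted p = 0.00224). The calls of both held in all 6 fits without a library. In the Bmp pathway none of 20 was raised and 2 were lowered, Bmpr1b and Id2, at a median of -0.44. With the block 1 was raised and 5 were lowered. Id4, another Id gene, was at 930.5, 2214.7 and 878.2 in controls and at 304.2, 600.4 and 474.4 in QKO (-1.46 ± 0.36, adjusted p = 0.0564; block 0.00544). Of 28 adhesion and epithelial genes, none was raised and 3 were lowered (block: 0 and 5), at a median of -0.20. They were Krt23, Cdh4 and Cdh3, the gene for P-cadherin, which was at 2524.3, 3926.9 and 2224.2 in controls and at 465.9, 1389.8 and 994.1 in QKO (-1.70 ± 0.34, adjusted p = 0.0219) and lost its call in 2 of the 6 fits.

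Target genes of p53 are switched on after DNA damage. Of 17 tested, 9 were raised in QKO and none lowered (block: 12 and 0), beside 2.05% of all genes raised (block: 5.3%), with a median log2 difference of 0.99. Cdkn1a, an inhibitor of cyclin-dependent kinases, was at 1563.4, 1357.2 and 1688.4 in controls and at 5180.3, 5746.0 and 5295.3 in QKO (1.82 ± 0.33, adjusted p = 0.0136). Zmat3, an RNA-binding protein, was at 617.3, 584.5 and 590.1 in controls and at 1072.6, 1239.2 and 1269.8 in QKO (0.99 ± 0.15, adjusted p = 0.0039). Ccng1, a cyclin of the p53 response, was raised by 1.40 ± 0.31 (adjusted p = 0.0344), and Fas, a death receptor, by 2.77 ± 0.64 (adjusted p = 0.0431). The other raised members were Gdf15, Eda2r, Sesn2, Aen and Trp53inp1, at 1.00 to 1.71. Mdm2, the ubiquitin ligase that restrains p53, was above its controls in every QKO library (0.66 ± 0.16, adjusted p = 0.0578; block 0.0132). Members without a call in either fit included Pmaip1, a proapoptotic gene, at -0.69 ± 0.63 (adjusted p = 0.661; block 0.579), and Sesn1 at -0.02 ± 0.15 (adjusted p = 0.97; block 0.958). Bbc3, another proapoptotic gene, differed by 0.26 ± 0.42 (adjusted p = 0.828; block 0.779) and Plk2, a kinase, by 0.64 ± 0.33 (adjusted p = 0.42; block 0.139). Only the call of Zmat3 held in all 6 fits without a library; Cdkn1a lost its call in 2, and the other 7 in 5 or 6.

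The same list was also read in the other comparisons. Summed over the list, controls in high CHIR held 11341 to 13866 normalized counts and QKO in high CHIR 25161 to 27454. In low CHIR, 2 controls were near 14637 and 14878 and the third at 28802, and QKO libraries were at 25872 and 32832. The median difference over the list was 0.66 for QKO in low CHIR. In separate libraries of high CHIR, it was 0.07 with guide RNA against Ctnnb1 and 0.01 with Cre. There 1 gene was called raised in each, beside 3.44% and 5.9% of all genes. The paper designed 4 guides against Ctnnb1, and the labels do not give how many were used together. The numbers of guides, 4 in QKO and 1 in its controls, moved with this list, and their part in it cannot be told apart from that of the 4 factors.

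**Figure D4:**
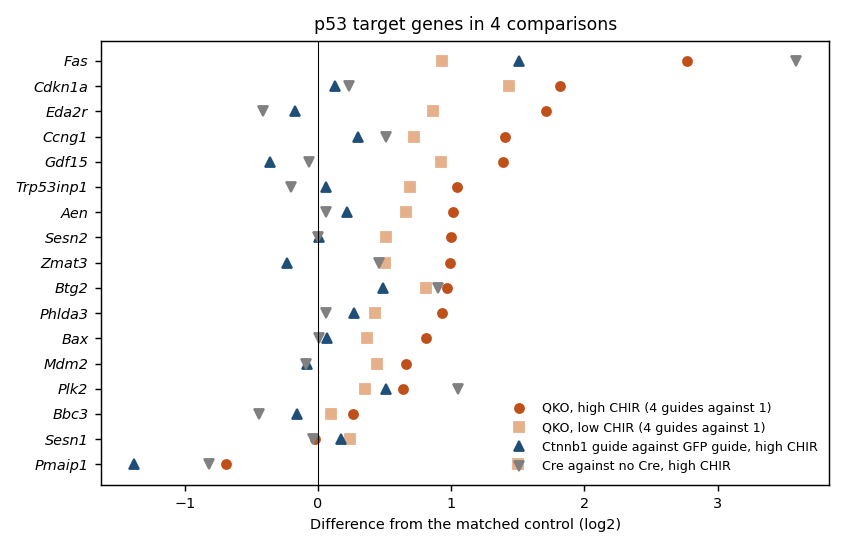
Log2 difference from the matched control (x axis) of 17 p53 target genes in 4 comparisons: QKO in high CHIR, QKO in low CHIR, and β-catenin removal in high CHIR by guide RNA against Ctnnb1 or by Cre. Medians were 0.99, 0.66, 0.07 and 0.01 in this order, and Fas was the highest member in QKO at 2.77.

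The set of called genes was then followed in libraries that were not used to choose it. Wild-type NPCs in high and low CHIR come from another table, with 3 libraries each. Removal of β-catenin in high CHIR has a table of its own, with 2 libraries per group. It used guide RNA against Ctnnb1 in Cas9 cells, or Cre in cells carrying a conditional allele. The former is called the Ctnnb1 guide here, although the labels give no number of guides. No library is shared with the QKO comparison. Of the 326 raised genes, 311 could be tested in wild-type NPCs. There 152 were called lower in high than in low CHIR (48.9%, against 5.05% of all genes tested), 4 were called higher (against 5.33%), and the median was -1.12. These 152 were 17.3% of the 880 genes called lower. Of the 78 lowered genes, 77 could be tested, and 46 were called higher in high CHIR (59.7%, 4.96% of the 928 genes called higher) at a median of 1.62. With the block, 268 of 817 raised genes tested there were called lower (32.8%, median -0.71) and 145 of 334 lowered genes called higher (43.4%, median 1.00). Without the block, genes raised in QKO were mostly those that wild-type NPCs held at a lower level in high CHIR, and the reverse for lowered genes.

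Removal of β-catenin gave the same direction for most called genes. With the Ctnnb1 guide, 293 of 311 raised genes tested were higher, and 123 of them were called (39.5%, against 3.44% of all genes), at a median of 1.01. Of 77 lowered genes, 71 were lower and 35 were called (45.5%, against 1.64%), at a median of -1.21. With Cre, 274 of 311 raised genes were higher and 148 called (47.6%, against 5.9%), at a median of 1.12. Of the lowered genes, 73 of 77 were lower and 46 called (59.7%, against 2.75%), at a median of -1.44. These shares are 21.3% and 12.7% of the 578 raised and 276 lowered genes with the guide, and 14.9% and 9.96% of the 990 and 462 with Cre. For the sets called with the block, 211 of 813 raised genes were called higher with the guide (26.0%, median 0.77) and 303 with Cre (37.3%, median 0.96). Of 322 lowered genes, 92 were called lower with the guide (28.6%, median -0.79) and 123 with Cre (38.2%, median -0.87). In both kinds of removal together, 114 raised and 34 lowered genes of QKO were called in the same direction. Of all 326 and 78 called genes, 169 and 31 were called so in neither, which includes the genes that could not be tested there.

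Values of single genes are given side by side. Cited1 was raised by 1.73 in QKO, but by 5.12 with the Ctnnb1 guide and 5.49 with Cre, and Osr1 by 2.18 against 3.77 and 4.44. Six2, by contrast, differed by 1.64 in QKO and by 0.44 (adjusted p = 0.523) and 1.30 (adjusted p = 0.0294) after β-catenin removal. Kit was lowered by QKO and rose with CHIR in wild-type NPCs by 4.68, but it differed by 0.22 and 0.80 after β-catenin removal (adjusted p = 0.896 and 0.579). Tent5c likewise had differences of 0.24 and -0.73 there (adjusted p = 0.852 and 0.496). Gfra2, raised by 4.16 in QKO, differed by 0.95 and 0.08 (adjusted p = 0.0999 and 0.918). Tcf7l1 itself was higher after β-catenin removal, by 1.53 and 1.81 (adjusted p = 0.00198 and 0.000271), and did not differ past the threshold in QKO. The tables were normalized separately and fitted separately, and the differences in size between them were not tested. The paper's knockout period was longer for the Tcf/Lef guides than for β-catenin removal, and it describes no transfection of the wild-type cells. Sizes are thus not compared under like conditions.

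**Figure D5:**
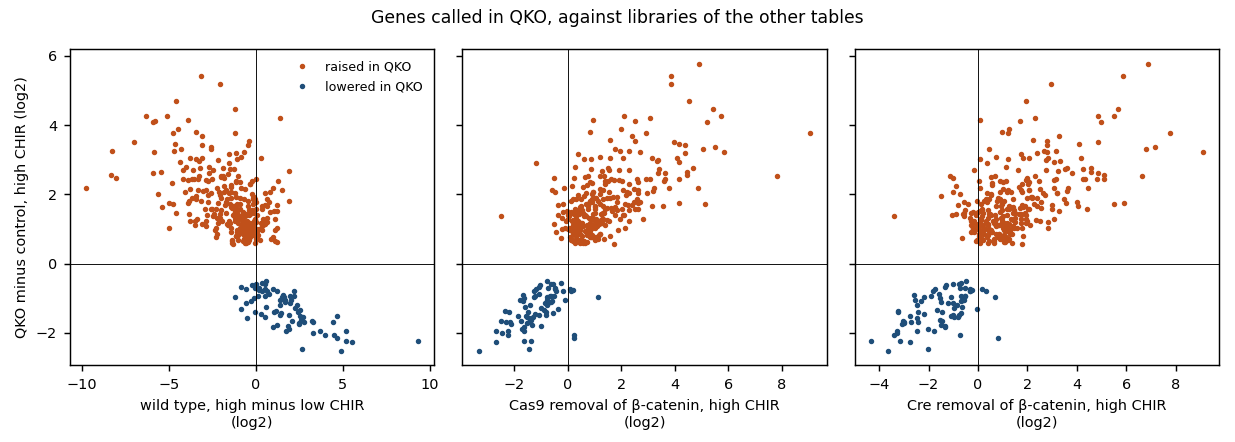
Log2 difference of QKO minus control in high CHIR (y axis) for the called genes, against 3 differences from libraries of the other tables (x axes): wild-type high minus low CHIR, and β-catenin removal in high CHIR by the Ctnnb1 guide and by Cre. Raised genes have a median of -1.12, 1.01 and 1.12 on the 3 x axes and lowered genes one of 1.62, -1.21 and -1.44.

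In low CHIR the same guides moved few genes past the threshold. With 2 QKO and 3 control libraries, Cnmd, an inhibitor of angiogenesis known from cartilage, was the only call (raised by 2.37, adjusted p = 0.00116). With the block 15 genes were raised and 1 was lowered. Genes raised in high CHIR had a median difference of 0.32 in low CHIR, and genes lowered in high CHIR one of -0.13. The QKO effect itself differed between the CHIR levels for 20 genes, being more positive in high CHIR for 17 (0.107% of genes) and more negative for 3 (0.0189%). With the block these numbers were 98 and 38. Leaving out a library gave 3 to 41 and 0 to 9, with 3 and 1 without low CHIR QKO replicate 3, and 41 and 9 without control replicate 3 in high CHIR. Il33, a nuclear cytokine of the interleukin-1 family, had the largest difference, of 4.40. It was at 88.2, 46.5 and 61.7 in controls and at 1120.4, 768.6 and 450.3 in QKO in high CHIR, but at 14469.4, 16829.1 and 9579.5 in controls and at 7859.3 and 6510.1 in QKO in low CHIR. The QKO libraries were thus above the controls in high CHIR and below them in low CHIR, where the difference had no call (-0.89 ± 0.36, adjusted p = 0.904 in limma).

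Markers of other cell types and signs of cell state were examined beside these results. NPC cultures can hold stromal cells of the kidney, and the summed stroma markers were at 205 to 2572 normalized counts in controls and at 390 to 5522 in QKO in high CHIR. Of 7 stroma markers tested none was called without the block and 4 were raised with it, at a median of 1.21. Pdgfrb, which marks stroma and pericytes, was at 512.6, 161.8 and 99.9 in control replicates 1, 2 and 3 and at 1244.7, 595.2 and 189.0 in QKO replicates 1, 2 and 3, so that each QKO library was above the control of its number while the groups overlapped. Foxd1, the defining gene of stromal progenitors, reached at most 11.5. Whether stromal cells take part in the genes raised in QKO was not tested. In bulk samples, fewer cells of a type and less RNA per cell cannot be told apart.

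Control replicate 1 in high CHIR held 2474.1 normalized counts of Lyz2, a marker of macrophages, where no other library in high CHIR exceeded 3.1. Blood markers summed to 56 to 2941 in controls and 35 to 75 in QKO, and of 4 tested none was called (block: 0 raised and 1 lowered). None of the 2 ureteric and 5 nephron segment markers tested was called. Of 5 endothelial markers 1 was called, Cldn5, a tight junction gene (3.3, 14.2 and 5.3 in controls, 47.8, 81.0 and 45.3 in QKO, log2 difference 2.94 ± 0.58, adjusted p = 0.0218), while Tie1 was at 0 in 4 of the 6 libraries and Kdr at 6.6 or less. Tek, an angiopoietin receptor gene, lay the other way, at 72.5, 171.9 and 172.2 in controls and at 13.0, 54.0 and 48.2 in QKO (-1.95 ± 0.64, adjusted p = 0.166; block 0.0684). Flt1, a Vegf receptor gene, differed by -0.95 ± 0.57 (adjusted p = 0.499; block 0.35), and the list had a median of 0.02. Of 16 interferon response genes 1 was raised, Bst2, a membrane protein that tethers viruses (1.20 ± 0.28, adjusted p = 0.0478), with a median of 0.72 (block: 3 raised). With Cre, 10 genes of that list were raised, beside 5.9% of all genes. With the Ctnnb1 guide none was raised, beside 3.44%.

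Lists of cell cycle genes stand beside 2.05% of all genes raised, or 5.3% with the block. None of 43 S phase genes was called (block: 1 raised), at a median of 0.08. Of 54 genes of G2 and M phase, 2 were raised (block: 7), at a median of 0.20. They were Psrc1, a spindle protein (1.50 ± 0.34, adjusted p = 0.0424), and Ckap2, a spindle-associated protein (0.80 ± 0.19, adjusted p = 0.047).

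The core of the sequence that Tcf/Lef proteins bind, CTTTGA, was looked for on both strands of RefSeq promoters, windows of 300 bases that end just inside a transcript (GRCm38.p6). Of 10408 tested genes with a promoter in the table, 13.9% held it, against 14.8% of 230 raised and 21.1% of 57 lowered genes. With the block, the shares were 15.4% of 603 raised and 18.6% of 247 lowered genes. A gene with several promoters was counted if any of them held the motif. The longer CTTTGAT, which contains the core, was found for 2.89% of all, 1.3% of raised and 5.26% of lowered genes, or 3 of the 57 lowered genes. With the block it was found for 1.66% of raised and 3.24% of lowered genes. Its matches in 2 of the 3 genes are shown as examples, with the motif in capitals, and the third is not shown here.
Hoxd8, chr2:74704452-74704478, plus strand: aaaagcaggaCTTTGATtcgctttgat
Hoxd8, chr2:74704462-74704488, plus strand: ctttgattcgCTTTGATaaggtcagga
Arhgef3, chr14:27361363-27361389, plus strand: acagcttactCTTTGATaccatggaac
The Hoxd8 windows overlap and hold 2 copies of the motif, which start 153 and 143 bases before the gene start. The Arhgef3 copy starts 16 bases before an alternative transcript start that lies inside the gene. A match in these letters is a description and not a binding site, and the share of genes with a match was not tested between the sets.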

How the data were processed

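Bulk RNA-seq libraries of cultured mouse NPCs were compared by the labels. The authors made cDNA with a SMARTer Ultra Low kit, sequenced paired reads of 150 bases, aligned them with STAR to the GRCm38 and GRCh38 genomes combined, counted uniquely aligned reads per Ensembl gene with featureCounts, and normalized with DESeq2. The signal the authors deposited in each of 3 tables is thus a normalized count. All values (100%) were whole multiples, within 0.01 of a read, of the value of 1 read, which gave back the reads for count-based tests and depth (13089780 to 20152719 reads on genes per library of the Tcf/Lef table). In all, 50 per-sample columns and 8 tables of the authors' own fold changes and p-values were not used, save for dates in the column names of 1 of the latter.

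Differences were fitted with limma 3.58.1 (trend in the variance) in R 4.3.3 over all libraries of a table, with a pseudocount of 1, keeping genes whose mean reached 10 normalized counts, and adjusted by the Benjamini-Hochberg method. Genes were called where the adjusted p was below 0.05 and the log2 fold change reached 0.5 in size. The replicate number was a block in a second fit. The numbers pair the libraries by the correlations given. The column names held 3 dates for each group (QKO in low CHIR 2 of 3). What these dates stand for is not known here, and they were not matched to replicate numbers. edgeR 4.0.16 and DESeq2 1.42.0 ran on the recovered reads as alternatives. Cell cycle lists came from Seurat 5.3.0 and were added later. Steps were tested on simulated data.

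Named genes were the 4 targets, the 12 raised and 12 lowered most among called genes whose mean reached 50 normalized counts without overlap, the called list members (others where a list needed them), and the largest differences between CHIR levels. Some genes of these sets enter the counts and are not reported by name here. The members and all lists were chosen with earlier results of these data known. Guides were placed on GENCODE vM21 transcripts of GRCm38, and the first 7 bases of the Lef1 target, which are intronic, come from the guide alone.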

Additional observations from a re-analysis of the deposited data

Results flagged for a closer look

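The effect of QKO differed between high and low CHIR for 20 genes, by a test of the difference itself in limma with 2 QKO and 3 control libraries in low CHIR. In 17 it was more positive in high CHIR. Il33, a nuclear cytokine, had a difference of 4.40 on the log2 scale, Ch25h, which makes 25-hydroxycholesterol, 4.19, Fgf1 3.79, and Ndnf, a secreted neuronal factor, 3.45. Tmem100 followed at 3.06, Meox2 at 2.86, Sncaip, a synuclein-binding protein, at 2.81, B3galt5, a galactosyltransferase, at 2.61, and Bcl2, the antiapoptotic gene, at 2.57. Others were Chn2 at 2.50, Phactr1 at 2.38, Mdga2 at 2.20, Gstm1 at 1.94, Fzd4 at 1.87, Rab13 at 1.82 and Bbx at 1.02. In 3 genes the effect was more negative in high CHIR, Lhfpl2 at -2.87, Sorbs2 at -2.16 and Hdac6, a deacetylase of tubulin, at -1.70.

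Bcl2 shows the usual form. It was at 326.4, 426.8 and 379.6 normalized counts in controls and at 1906.1, 2022.3 and 2021.9 in QKO in high CHIR (log2 difference 2.40 ± 0.14, adjusted p = 1.05e-05), and at 4763.6, 5341.2 and 3934.3 in controls and 3900.0 and 4385.3 in QKO in low CHIR (-0.17, adjusted p = 0.904). QKO libraries thus overlapped the controls in low CHIR and lay at several times their level in high CHIR. Lhfpl2 had another form. It was at 139.4, 78.0 and 73.5 in controls and at 484.5 and 388.0 in QKO in low CHIR, and at 2676.8, 1269.2 and 1873.4 in controls and 1313.3, 1130.1 and 1089.5 in QKO in high CHIR, where the groups overlapped. Sorbs2 was at 8296.6, 7128.7 and 5299.0 in controls and at 1931.3, 2159.4 and 2188.7 in QKO in high CHIR, but at 127.2, 140.1 and 165.1 in controls and 245.1 and 159.3 in QKO in low CHIR.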

How the results depend on the processing

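Of the 56 named genes with a call, none turned its direction in any fit, 56 kept the call with the replicate block, 22 in every fit that left out a library, and 48 in every other alternative run. The block, which follows the pairing of the libraries, moved the counts most, to 841 raised and 340 lowered genes over 11 libraries and 973 and 660 over the 6 in high CHIR. edgeR with the block gave 844 and 433, and DESeq2 without it 557 and 302, whereas edgeR without it gave 296 and 96. The share of raised among called genes was 80.7% without the block, 71.2% with it, 59.6% with it over 6 libraries, 66.1% in edgeR with the block and 64.8% in DESeq2. Leaving out a library gave 126 to 346 raised and 22 to 130 lowered genes. Genes whose QKO effect was more positive or more negative in high CHIR numbered 98 and 38 with the block, 108 and 50 in DESeq2, and 3 to 41 and 0 to 9 when a library was left out. The cause of these shifts was not tested. Leaving out a wild-type library gave 117 to 177 raised genes called lower there, and 39 to 52 lowered genes called higher. Wild-type numbers did not pair libraries (r = 0.147, 0.039 and 0.095). The counts of genes past an adjusted p of 0.05 alone, 329 and 78, were chosen after seeing the data. Calls of genes at few normalized counts, such as Meox1, are limited by depth.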

Other observations

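Some further called genes are given here, which were chosen after their values were seen. Aldh1a2, which like Aldh1a3 makes retinoic acid, was at 9966.3, 5787.7 and 7478.5 normalized counts in controls and at 2285.9, 2056.6 and 3516.4 in QKO in high CHIR (log2 difference -1.57 ± 0.25, adjusted p = 0.00571), so both synthesis genes were lowered. Slit2, a secreted guidance cue that limits Gdnf signaling in the kidney, was at 2217.8, 2241.0 and 1293.9 in controls and at 567.6, 632.6 and 791.6 in QKO (-1.50 ± 0.22, adjusted p = 0.00376). Its receptor gene Robo1 was at 2322.4, 3944.1 and 1755.3 in controls and at 698.8, 1009.6 and 1011.4 in QKO (-1.50 ± 0.27, adjusted p = 0.0133). Both were below every control in every QKO library. After β-catenin removal Slit2 differed by -1.06 with the Ctnnb1 guide and -1.03 with Cre, and Robo1 by -0.83 and -0.78, none of them with a call (adjusted p = 0.191, 0.187, 0.107 and 0.111).

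The neighbouring homeobox genes Hoxd8 and Hoxd9 were both lowered. Hoxd8 was at 550.5, 580.5 and 384.9 in controls and at 198.2, 263.8 and 197.7 in QKO (-1.19 ± 0.22, adjusted p = 0.0161), and Hoxd9 at 462.3, 393.4 and 338.1 in controls and 179.9, 165.2 and 214.0 in QKO (-1.09 ± 0.20, adjusted p = 0.0151). Hoxd11 of the same cluster was called only with the block, as given above. Of the Bcl2 family, the antiapoptotic Bcl2 was raised by 2.40 and the proapoptotic Bmf had a log2 difference of -2.48. Pmaip1 and Bbc3, also proapoptotic, had no call in either fit, as given above. Cnmd was raised in high CHIR too (1.36 ± 0.18, adjusted p = 0.00225), from 493.7, 451.0 and 593.3 in controls to 1106.5, 1618.3 and 1257.3 in QKO, while it differed by -2.49 with the Ctnnb1 guide and -3.40 with Cre (adjusted p = 0.00202 and 8.36e-05). Of the 311 raised genes tested there, it was the 1 called lower with the guide and 1 of the 2 called lower with Cre.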
